A study of Homo sapiens with 12 samples.

Results

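MYC, its dimerisation partner MAX and the related factors that share MAX or its relative MLX form a network of transcription factors, and 10 of its genes were followed here: MYC, MAX, MXD1, MXI1, MXD3, MXD4, MNT, MGA, MLX and MLXIP. Members were taken by their symbol from a table of 61466 genes, which held 1 row for each of the 10. RNA sequencing had been done on 12 libraries of 2 established diffuse large B cell lymphoma lines, with 3 libraries in each of 4 groups: Farage cells given morusinol, Farage control cells given vehicle, SU-DHL-8 cells given morusinol and SU-DHL-8 control cells given vehicle, all for 12 h. Morusinol is a prenylated flavonoid from mulberry root bark. Its dose is not stated in the sources used here, nor is the vehicle, nor whether replicates were separate cultures, so the p-values measure only the spread between these libraries. The control samples are labelled wild type, and no engineered allele is named for either line.

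MYC binds DNA only as a dimer with MAX, at the E-box sequence CACGTG, where it recruits histone acetyltransferase complexes and raises the transcription of genes for ribosome assembly, metabolism and cell division. MXD1, MXI1, MXD3, MXD4 and MNT compete for MAX and bind the same sites, but bring the SIN3 corepressor and histone deacetylases. MGA joins MAX in a variant Polycomb complex, and MLX pairs with MondoA (the product of MLXIP), which senses glucose metabolites, as well as with MXD1, MXD4 and MNT. MYC is often rearranged or overexpressed in diffuse large B cell lymphoma.

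Values are FPKM (fragments per kilobase of gene, scaled to the fragments of the library), which can be compared between genes because they are scaled by length. The estimated depth was 6.05 to 19.0 M fragments per library, and the members rested on an estimated 48.4 (MXD3) to 3642 (MGA) fragments. Depth went partly with treatment. It was 9.37 to 12.7 M in Farage morusinol and 16.6 to 19.0 M in Farage control, without overlap. In SU-DHL-8 it was 6.05, 11.3 and 14.97 M in morusinol and 14.2 to 15.2 M in control, which overlapped. The part of depth in the differences between morusinol and control was not tested. Replicate libraries of a group had a Pearson r across genes of 0.964 to 0.980 on the log2 scale. RN7SL1, the RNA of the signal recognition particle, held 19.9% to 31.5% of the summed FPKM of a library. The summed FPKM of 6 B lymphocyte markers was 612.8 to 659.9 in Farage morusinol and 965.9 to 1021 in Farage control, and 230.1 to 238.0 in SU-DHL-8 morusinol and 353.9 to 367.8 in SU-DHL-8 control. The 6 did not move as one: 5 fell in Farage and CD79A was not called (376 ± 23.7 FPKM in morusinol and 391 ± 24.8 in control), while in SU-DHL-8 4 fell and CD79B and PAX5 rose (0.35 and 0.18, adjusted p = 0.0161 and 0.0343 in limma). Most of the lower sum was MS4A1 in Farage (92.9 ± 7.69 FPKM in morusinol and 356 ± 21.3 in control) and CD79A in SU-DHL-8 (43.0 ± 2.88 FPKM in morusinol and 175 ± 5.13 in control). The part of these changes in the results was not tested. The sum of 8 T and NK cell markers was 60.8 to 93.3 in Farage and 11.04 to 19.7 in SU-DHL-8, mostly from the receptor constant regions TRAC and TRBC2. The defining chains CD3D, CD3E and CD3G had group means of at most 0.0425, and CD247 of at most 0.522. PRF1 had 3.73 FPKM in Farage morusinol, 4.05 in Farage control and 0 in SU-DHL-8. NKG7 had 1.95 in SU-DHL-8 morusinol, 1.38 in SU-DHL-8 control and at most 0.533 in Farage. The sums of 7 myeloid and of 8 fibroblast, endothelial and epithelial markers stayed at or under 2.19 in every library. In such bulk samples, fewer cells of a type and less RNA per cell cannot be told apart.

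Morusinol went with higher RNA of most MAX partners that repress, in both lines, while MYC itself rose in SU-DHL-8 and was not called in Farage. MXI1 stood at 3.50 times its control level in Farage and 3.09 times in SU-DHL-8. A gene was called when its adjusted p, from limma on log2(FPKM + 1) with Benjamini-Hochberg adjustment over 17574 genes, was under 0.05. All 10 members passed the filter on low values (at least 3 libraries with an FPKM of 1 or more). In Farage, 7 members rose, 1 fell and 2 were not called; of all genes tested, 43.1% were called, 21.9% higher and 21.2% lower. For SU-DHL-8, 8 rose, none fell and 2 were not called, against 46.8% of all genes called, 25.1% higher and 21.6% lower. Of the genes called in SU-DHL-8 53.7% were higher, and 44.4% when every library was rescaled to the same total, where the same 8 member calls of higher level stood beside a call of lower level for MLX. The median log2 fold change of the 10 members was 0.24 in Farage and 0.48 in SU-DHL-8, beside -0.03 and 0.02 over all genes tested.

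**Figure D1:**
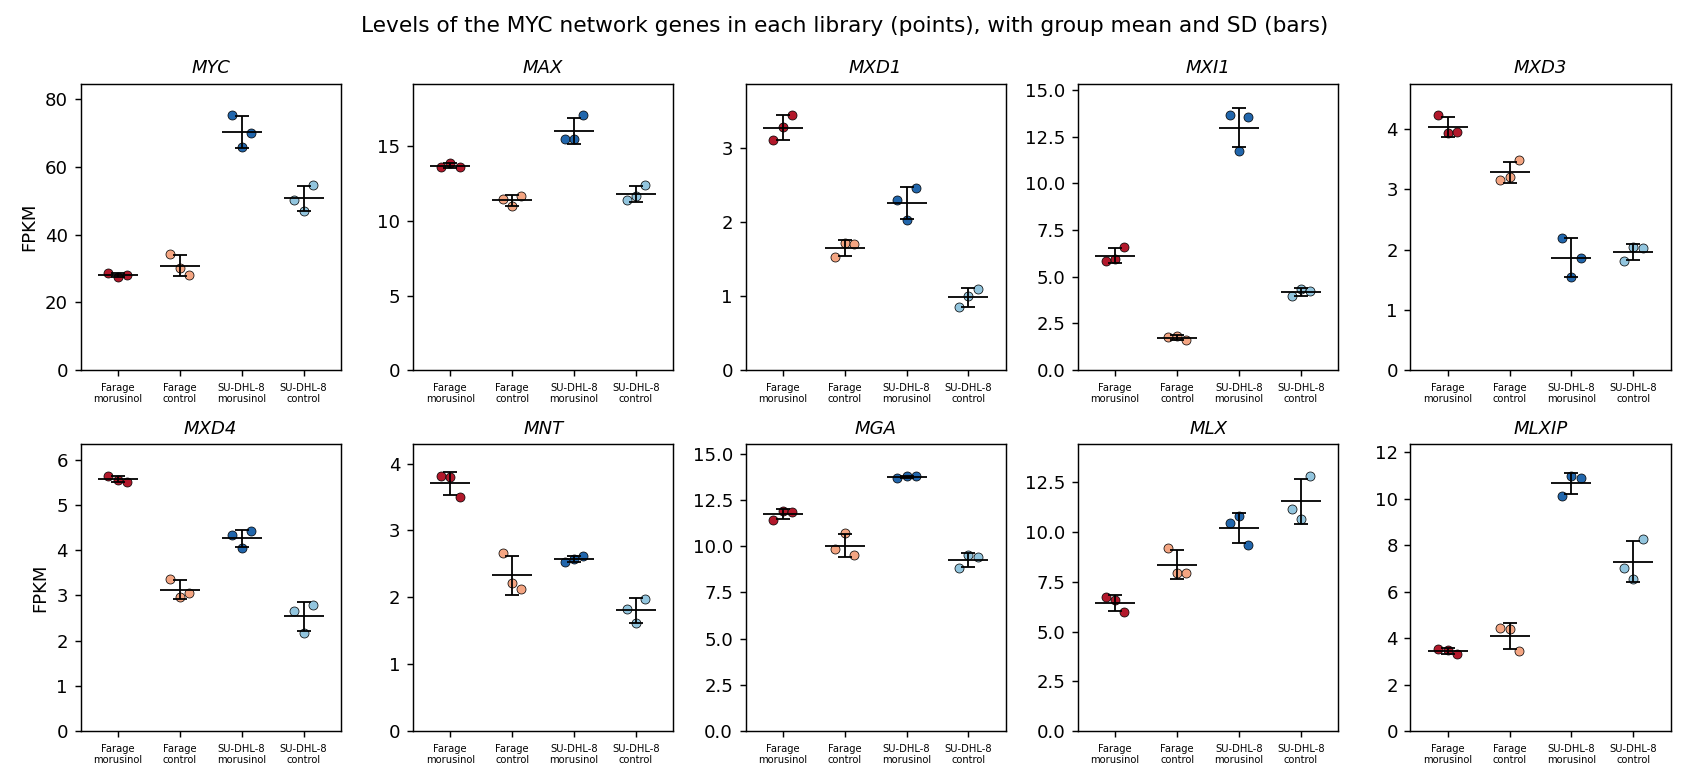
FPKM of each of the 10 network genes by library (points), in Farage morusinol, Farage control, SU-DHL-8 morusinol and SU-DHL-8 control, with the group mean (long bar) and SD (whiskers, n = 3); each panel has its own linear axis from 0. MYC spans 27.6 to 75.2 FPKM, and MXI1 lies far above its control in both lines.

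MYC (ENSG00000136997, GRCh38 chromosome 8, 127735434 to 127741434, plus strand) was the most abundant member in every library. It stood at 28.8, 27.6 and 28.0 FPKM in Farage morusinol and at 34.2, 30.1 and 28.2 FPKM in Farage control. These groups overlapped, and the difference was not called (log2 fold change -0.12 ± 0.0760 SE, adjusted p = 0.224 in limma). In SU-DHL-8, MYC stood at 75.2, 65.8 and 69.9 FPKM in morusinol and at 50.4, 47.1 and 54.6 FPKM in control. Every treated library was above every control library, and the rise was 0.46 ± 0.0760 (adjusted p = 0.000498). The Farage response was lower than the SU-DHL-8 response by a tested difference of -0.59 ± 0.108 (adjusted p = 0.0019), with a 95% interval from -0.83 to -0.35. No gene of the annotation overlaps MYC.

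MAX (ENSG00000125952, chromosome 14, 65006174 to 65102695, minus strand), the partner that all of the MYC, MXD, MNT and MGA proteins need, rose modestly in both lines. It had 13.6, 13.9 and 13.6 FPKM in Farage morusinol and 11.5, 10.97 and 11.7 FPKM in Farage control (0.25 ± 0.0467, adjusted p = 0.00158 in limma). SU-DHL-8 morusinol libraries had 15.5, 15.5 and 17.1 FPKM and control libraries 11.4, 11.6 and 12.4 FPKM (0.41 ± 0.0467, adjusted p = 3.5e-05). Treated and control libraries did not overlap in either line, and the 2 responses were not called different (-0.16 ± 0.0661, adjusted p = 0.0796, 95% interval -0.31 to -0.02). Without SU-DHL-8 control replicate 3 that difference was called (-0.20, adjusted p = 0.0482).

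MXI1 (ENSG00000119950, chromosome 10, 110207605 to 110287365, plus strand) codes for an MXD family repressor and changed most among the members. Its level was 5.83, 5.96 and 6.57 FPKM in Farage morusinol, against 1.76, 1.85 and 1.64 FPKM in Farage control. In SU-DHL-8 it was 13.6, 11.8 and 13.5 FPKM in morusinol, against 3.97, 4.36 and 4.25 FPKM in control. The ratio of the mean FPKM was 3.50 in Farage and 3.09 in SU-DHL-8. On the log2(FPKM + 1) scale, which understates changes of low genes, the rises were 1.37 ± 0.0666 and 1.43 ± 0.0666 (adjusted p = 9.98e-08 and 4.65e-08 in limma). In absolute size these exceeded the change of 97.9% of tested genes in Farage and 97.4% in SU-DHL-8. The responses of the lines were not called different (-0.05 ± 0.0941, adjusted p = 0.707, 95% interval -0.26 to 0.16), and the sign of this small difference turned with a pseudocount of 0.1 (0.15). The processed pseudogene AL360182.1 and the antisense gene AL360182.2 lie within MXI1, and reached 2.82 and 2.16 FPKM. They were not called in Farage (-0.23 and 0.48) and were called higher in SU-DHL-8 (1.11 and 1.16). AL360182.2 shares 205 exonic bases with MXI1, so some fragments could belong to either gene.

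MXD1 (ENSG00000059728, chromosome 2, 69897688 to 69942945, plus strand), the founding MXD repressor, was the least abundant member in SU-DHL-8 control. It had 3.10, 3.28 and 3.44 FPKM in Farage morusinol and 1.53, 1.71 and 1.70 FPKM in Farage control. SU-DHL-8 morusinol libraries had 2.29, 2.03 and 2.46 FPKM and control libraries 0.848, 0.998 and 1.10 FPKM. The groups were apart in each line, with rises of 0.69 ± 0.0815 in Farage and 0.72 ± 0.0815 in SU-DHL-8 (adjusted p = 5.93e-05 and 3.41e-05 in limma) and ratios of the mean FPKM of 1.99 and 2.30. Their difference was -0.03 ± 0.115 (adjusted p = 0.884), with a 95% interval from -0.28 to 0.23. SNRNP27 overlaps MXD1 on the same strand by 237 exonic bases and was not called in either line (0.10 in Farage and -0.02 in SU-DHL-8).

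MXD4 (ENSG00000123933, chromosome 4, 2247432 to 2262294, minus strand), a family member usually linked with cells that leave the cycle, rose in both lines. Its values were 5.64, 5.56 and 5.51 FPKM in Farage morusinol and 3.36, 2.96 and 3.06 FPKM in Farage control (0.67 ± 0.0706, adjusted p = 2.6e-05 in limma). They were 4.33, 4.06 and 4.42 FPKM in SU-DHL-8 morusinol and 2.65, 2.17 and 2.78 FPKM in SU-DHL-8 control (0.58 ± 0.0706, adjusted p = 5.7e-05). No treated library reached down to a control library of its line. MNT (ENSG00000070444, chromosome 17, 2384060 to 2401118, minus strand), a MAX partner found in both growing and resting cells, had 3.81, 3.798 and 3.50 FPKM in Farage morusinol and 2.66, 2.21 and 2.12 FPKM in Farage control (0.50 ± 0.0777, adjusted p = 0.000405). It had 2.53, 2.57 and 2.62 FPKM in SU-DHL-8 morusinol and 1.83, 1.61 and 1.98 FPKM in SU-DHL-8 control (0.35 ± 0.0777, adjusted p = 0.00342). Again the treated libraries lay above the controls of their line. The lines did not differ by test in the response of MXD4 (95% interval -0.13 to 0.31) or MNT (-0.09 to 0.39).

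MXD3 (ENSG00000213347, chromosome 5, 177301461 to 177312757, minus strand), the MXD member usually expressed in dividing cells, had the smallest log2 fold changes of the 5 repressor genes between morusinol and control in each line. In Farage it had 4.22, 3.93 and 3.96 FPKM in morusinol and 3.16, 3.20 and 3.48 FPKM in control, a rise of 0.23 ± 0.0840 (adjusted p = 0.0445 in limma). This call was lost whichever of the 6 Farage libraries was left out (adjusted p = 0.0531 to 0.129). In SU-DHL-8 it had 2.20, 1.55 and 1.85 FPKM in morusinol and 1.81, 2.05 and 2.02 FPKM in control, which overlapped (-0.05 ± 0.0840, adjusted p = 0.676). The difference between its responses was the largest of the 5 repressor genes, and was not called (0.29 ± 0.119, adjusted p = 0.0876, 95% interval 0.02 to 0.55). MXD3 shares 1158 exonic bases with PRELID1 on the opposite strand, which reached 38.7 FPKM and changed by -0.79 in Farage and -0.51 in SU-DHL-8, and 926 with RAB24 on its own strand, which changed by 0.20 (not called) and 0.58. Without knowing whether strand was used in counting, the fragments of these genes cannot be told apart.

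Promoter sequences from RefSeq (GRCh38.p14) were found for 9 of the 10 members, as 14 windows of 250 bases before a transcription start. The E-box CACGTG, searched on both strands, was in 3 of these windows (MXD4, MNT and MLX) and in 6.34% of 35116 windows of the same length over all genes. A variant E-box, CACGCG, was in 1 window of MGA and in 9.72% of all windows, and the FOXO motif GTAAACA in 1 of the 3 windows of MXI1 and in 2.98% of all. The ATF4 composite motif TGATGCAA was in none of the 14 and in 0.772% of all. Stretches around 4 of the matches are shown. They carry the network's own binding sequence in 3 members, and the match in MXI1, the member that changed most. Of the 3 members with an E-box, MXD4 and MNT rose in both lines, while MLX fell in Farage and was not called in SU-DHL-8. MAX and MXD1 rose in both lines without a match to any of the 4 motifs. A link between motif and response was not tested. Capitals mark the motif, the stretches lie outside annotated exons, and a match is a description of letters and not a bound site.
MXD4, chr4:2262295-2262359, minus strand: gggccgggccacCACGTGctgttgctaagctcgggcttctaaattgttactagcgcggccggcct
MNT, chr17:2401188-2401310, minus strand: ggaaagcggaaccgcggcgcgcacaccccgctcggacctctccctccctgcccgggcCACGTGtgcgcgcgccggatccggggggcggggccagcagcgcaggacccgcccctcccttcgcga
MLX, chr17:42566990-42567067, plus strand: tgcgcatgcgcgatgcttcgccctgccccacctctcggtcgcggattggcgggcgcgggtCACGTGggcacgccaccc
MXI1, chr10:110210020-110210146, plus strand: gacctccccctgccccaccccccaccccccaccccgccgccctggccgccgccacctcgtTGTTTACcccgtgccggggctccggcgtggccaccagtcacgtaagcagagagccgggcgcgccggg

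MGA (ENSG00000174197, chromosome 15, 41621224 to 41773081, plus strand) codes for the large scaffold that holds MAX in its Polycomb complex, and it rose in both lines. It had 11.4, 11.9 and 11.9 FPKM in Farage morusinol and 9.83, 10.7 and 9.54 FPKM in Farage control (0.21 ± 0.0460, adjusted p = 0.00399 in limma). In SU-DHL-8 morusinol it had 13.7, 13.8 and 13.8 FPKM, and in SU-DHL-8 control 8.80, 9.52 and 9.43 FPKM (0.53 ± 0.0460, adjusted p = 4.77e-06). Treated and control libraries were apart in both lines. The Farage response was lower by a tested difference of -0.32 ± 0.0650 (adjusted p = 0.00367), which was not called when each library was rescaled to the same total (-0.22, adjusted p = 0.0923).

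MLX and MLXIP make up the MondoA arm, in which neither gene was called higher in Farage. MLX (ENSG00000108788, chromosome 17, 42567068 to 42573239, plus strand) had 6.74, 6.56 and 5.97 FPKM in Farage morusinol and 9.20, 7.95 and 7.94 FPKM in Farage control, and fell (-0.33 ± 0.0818, adjusted p = 0.00724 in limma). It had 10.5, 10.8 and 9.34 FPKM in SU-DHL-8 morusinol and 11.2, 10.7 and 12.8 FPKM in SU-DHL-8 control, which overlapped and were not called (-0.16 ± 0.0818, adjusted p = 0.138). With every library rescaled to the same total, the SU-DHL-8 difference was called (-0.27, adjusted p = 0.0273). MLX shares 770 exonic bases with PSMC3IP on the opposite strand, which reached 5.68 FPKM and changed by -0.37 in Farage and -0.58 in SU-DHL-8. PSMC3IP was called lower in both lines (adjusted p = 0.0151 and 0.000829 in limma). As the use of strand in counting is not known, fragments from the shared bases could belong to either gene.

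MLXIP (ENSG00000175727, chromosome 12, 122078722 to 122147347, plus strand) had 3.55, 3.48 and 3.31 FPKM in Farage morusinol and 4.43, 4.38 and 3.44 FPKM in Farage control. The control library at 3.44 FPKM fell within the treated range, and the difference was not called (-0.19 ± 0.0906, adjusted p = 0.124 in limma), although it was without that library (-0.28, adjusted p = 0.0202). In SU-DHL-8 it had 10.1, 10.97 and 10.9 FPKM in morusinol and 7.04, 6.57 and 8.26 FPKM in control, and rose by 0.50 ± 0.0906 (adjusted p = 0.000999). Its response was lower in Farage than in SU-DHL-8 by -0.69 ± 0.128 (adjusted p = 0.00216). With MYC and MGA, MLXIP made up the 3 members whose responses were called different between the lines, all lower in Farage, against 34.9% of all genes called, 17.3% higher and 17.6% lower. Of all genes called for this difference 49.6% were higher, and 62.5% when every library was rescaled to the same total.

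**Figure D2:**
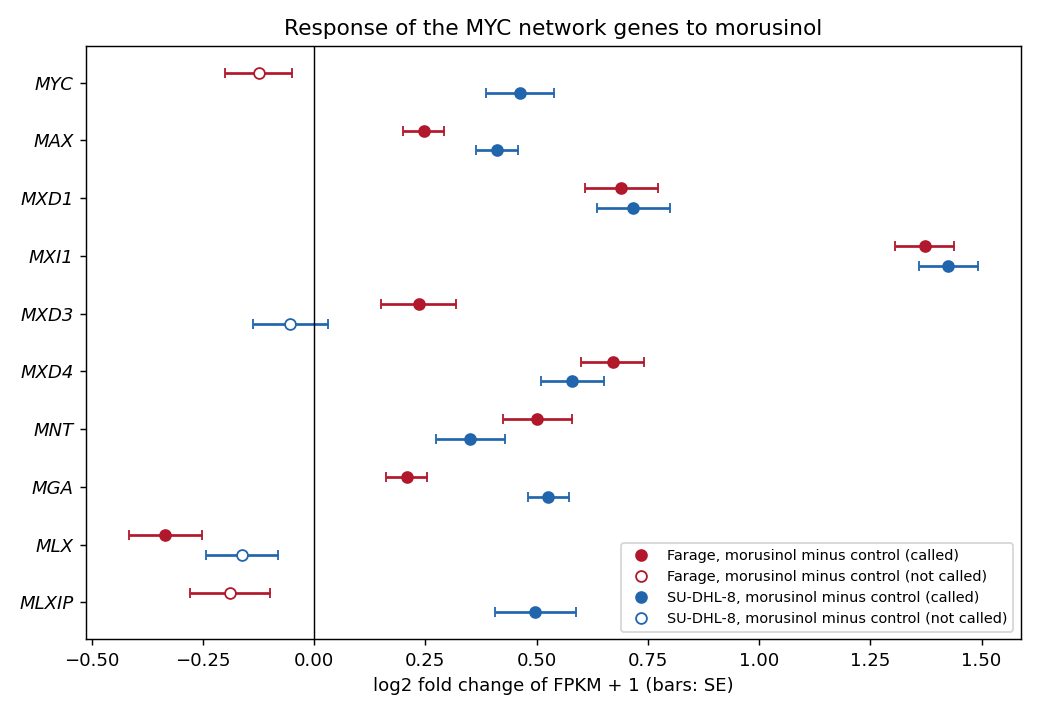
Log2 fold change of FPKM + 1, morusinol minus control, for each of the 10 genes in Farage (red) and SU-DHL-8 (blue), with SE from limma as bars; filled points were called and open points were not. MXI1 lies at 1.37 and 1.43, MYC and MLXIP are called only in SU-DHL-8, and MLX lies below 0 in both lines.

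Between the controls, Farage minus SU-DHL-8, 4 members were higher, 4 lower and 2 not called, beside 64.1% of all genes called, 34.5% higher and 29.6% lower. The 8 called members were 6 in a fit of the 2 groups alone and 6 to 9 with 1 library left out, a share near that of all genes. Lower in Farage control were MYC (30.8 ± 3.04 against 50.7 ± 3.77 FPKM, SD, n = 3 each), MXI1 (1.75 ± 0.108 against 4.19 ± 0.198), MLX (8.37 ± 0.725 against 11.5 ± 1.12) and MLXIP (4.08 ± 0.558 against 7.29 ± 0.876). MXI1 had the largest of the 8 called control differences (-0.92 ± 0.0666, adjusted p = 4.53e-07 in limma). Higher in Farage control were MXD1 (1.65 ± 0.104 against 0.983 ± 0.128 FPKM), MXD3 (3.28 ± 0.177 against 1.96 ± 0.130), MXD4 (3.13 ± 0.208 against 2.53 ± 0.321) and MNT (2.33 ± 0.288 against 1.80 ± 0.185). The calls of MXD4 and MNT were lost without Farage control replicate 1 (adjusted p = 0.0619 and 0.0717) or without SU-DHL-8 control replicate 2 (0.0559 and 0.0687). MAX (11.4 ± 0.375 against 11.8 ± 0.522 FPKM) and MGA (10.03 ± 0.611 against 9.25 ± 0.393) were not called; MGA was called without Farage control replicate 3 (0.14, adjusted p = 0.0330) and with libraries rescaled to the same total (0.21, adjusted p = 0.0142).

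The order of the 4 group means also set the members apart. MXD1, MXD4 and MNT had one order: Farage morusinol, SU-DHL-8 morusinol, Farage control, then SU-DHL-8 control, with the ranges of neighbouring groups apart except that SU-DHL-8 morusinol and Farage control overlapped for MNT. MAX and MGA were highest in SU-DHL-8 morusinol and next in Farage morusinol; for MAX the 2 control groups overlapped. MXI1 ran from SU-DHL-8 morusinol through Farage morusinol and SU-DHL-8 control to Farage control, with no overlap between neighbours. MYC and MLXIP were highest in SU-DHL-8 morusinol, then SU-DHL-8 control, and their Farage groups overlapped at the low end. MXD3 was highest in Farage morusinol, and its SU-DHL-8 groups overlapped at the low end. MLX alone of the members was highest in SU-DHL-8 control, overlapping SU-DHL-8 morusinol, and lowest in Farage morusinol.

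Sums and proportions of the members were computed from FPKM without a test. The summed level of the 5 genes for SIN3-binding repressors (MXD1, MXI1, MXD3, MXD4 and MNT) was 22.6, 22.5 and 23.0 FPKM in Farage morusinol and 12.5, 11.9 and 12.0 FPKM in Farage control. It was 25.0, 21.97 and 24.9 FPKM in SU-DHL-8 morusinol and 11.1, 11.2 and 12.1 FPKM in SU-DHL-8 control. Treated libraries were above the controls in each line, and the 2 lines overlapped both in the treated and in the control sums. This sum is a level and depends on how libraries are scaled, whereas the proportions that follow are ratios within a library and do not. Per unit of MYC, the sum was 0.784, 0.817 and 0.821 in Farage morusinol and 0.365, 0.396 and 0.426 in Farage control. It was 0.332, 0.334 and 0.356 in SU-DHL-8 morusinol and 0.220, 0.237 and 0.222 in SU-DHL-8 control. Every treated library was above the controls of its line, and all SU-DHL-8 morusinol libraries stayed below all Farage control libraries. MXI1 made up 27.0% ± 1.47 of the repressor sum in Farage morusinol and 14.4% ± 0.979 in Farage control, and 54.2% ± 0.562 in SU-DHL-8 morusinol and 36.6% ± 2.08 in SU-DHL-8 control (SD, n = 3 each).

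MYC per MAX was 2.06 ± 0.0689 in Farage morusinol and 2.71 ± 0.282 in Farage control, without overlap, and 4.39 ± 0.401 in SU-DHL-8 morusinol and 4.30 ± 0.215 in SU-DHL-8 control, which overlapped. MYC made up 45.0% ± 0.796 of the summed FPKM of all MAX partners measured (MYC, the 5 repressor genes and MGA) in Farage morusinol and 58.1% ± 2.10 in Farage control. In SU-DHL-8 it made up 65.1% ± 0.876 in morusinol and 71.0% ± 1.27 in control. The MYC share was therefore lower in treated than in control libraries of both lines, in SU-DHL-8 although MYC itself rose. MLXIP per MLX was 0.537 ± 0.0151 in Farage morusinol and 0.488 ± 0.0590 in Farage control, which overlapped, and 1.05 ± 0.104 in SU-DHL-8 morusinol and 0.630 ± 0.0150 in SU-DHL-8 control, which did not. These are proportions of RNA, and protein was not measured.

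**Figure D3:**
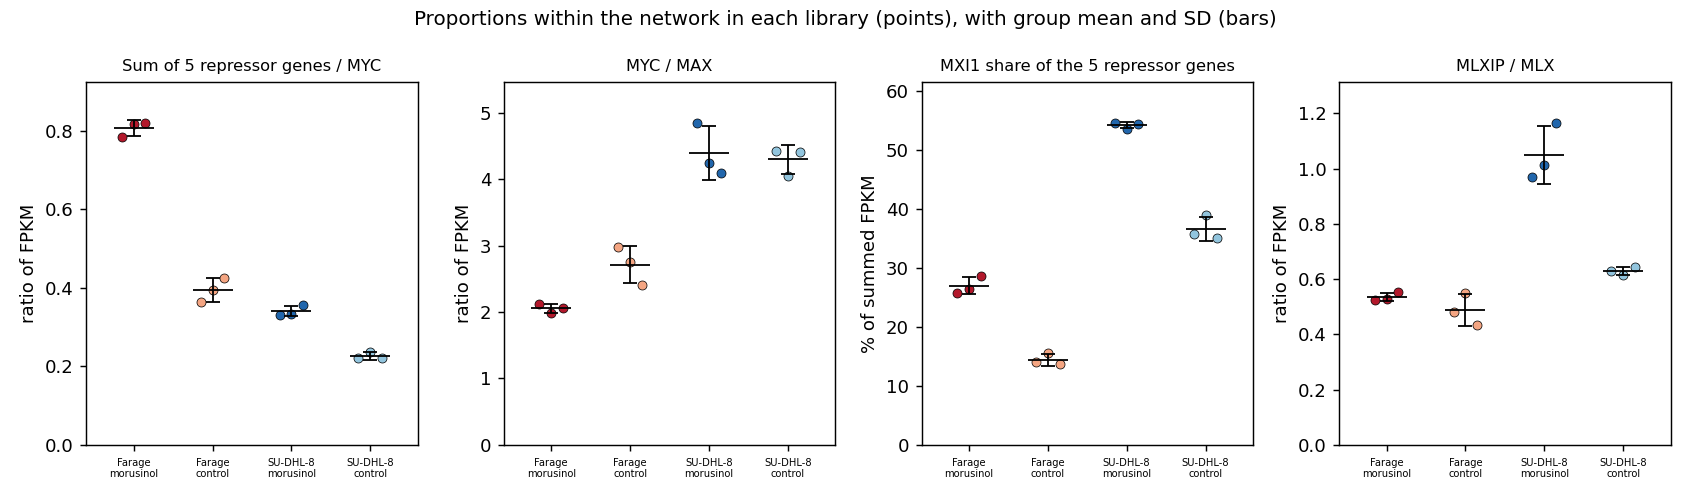
Proportions of FPKM within each library (points) by group, with mean and SD (n = 3): the sum of the 5 repressor genes over MYC, MYC over MAX, the percentage of MXI1 in the repressor sum, and MLXIP over MLX. The repressor sum per MYC is highest in Farage morusinol (0.784 to 0.821) and lowest in SU-DHL-8 control (0.220 to 0.237).

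Genes that MYC is known to induce were mostly lower after morusinol in both lines, also where MYC rose. The list of 60 such genes was drawn from general knowledge, with earlier results of these data known. Its genes are under many controls, so its counts do not measure the activity of MYC. Of its 58 tested genes, 47 fell and 6 rose in Farage, and 50 fell and 3 rose in SU-DHL-8. Their medians were -0.49 and -0.61, beside -0.03 and 0.02 over all genes tested. These counts, and those of the parts of the list below, stand beside 21.9% of all genes called higher and 21.2% lower in Farage. In SU-DHL-8 the shares were 25.1% higher and 21.6% lower. Of the list's genes for ribosome assembly and the nucleolus, 19 of 19 fell in Farage and 17 of 19 in SU-DHL-8, and none rose. NOP16, a nucleolar protein gene, had 6.31 ± 0.461 FPKM in Farage morusinol and 15.1 ± 0.706 in Farage control (-1.14), and 10.6 ± 1.42 in SU-DHL-8 morusinol and 23.0 ± 0.141 in SU-DHL-8 control (-1.05). PA2G4, a growth regulator of the nucleolus, changed by -0.94 in Farage and -1.04 in SU-DHL-8, and MYBBP1A by -0.82 and -0.73. UBTF, a factor of RNA polymerase I, changed by -0.38 and -1.13.

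Among 22 metabolic targets, 15 fell and 5 rose in Farage, and 18 fell and 2 rose in SU-DHL-8 (medians -0.44 and -0.52). NME1, a nucleoside diphosphate kinase, had 7.39 ± 0.487 FPKM in Farage morusinol and 23.1 ± 0.800 in Farage control, and 13.4 ± 0.852 in SU-DHL-8 morusinol and 36.8 ± 1.47 in SU-DHL-8 control. The lactate dehydrogenase gene LDHA changed by -1.53 and -2.11. SHMT2, the mitochondrial serine hydroxymethyltransferase, which is also a target of the stress factor ATF4, went the other way (1.96 ± 0.0617 and 1.27 ± 0.0617). TFRC, the transferrin receptor, differed in direction: 112 ± 1.10 FPKM in Farage morusinol and 96.7 ± 2.96 in Farage control (0.21, adjusted p = 0.00702 in limma), but 10.98 ± 0.810 in SU-DHL-8 morusinol and 72.4 ± 3.47 in SU-DHL-8 control (-2.62, adjusted p = 2.19e-10). The responses of TFRC differed by 2.83 ± 0.0730 (adjusted p = 1.11e-08). Of 17 tested targets for the cell cycle and growth, 13 fell and 1 rose in Farage, and 15 fell and 1 rose in SU-DHL-8 (medians -0.52 and -0.86). They include HSPE1, a mitochondrial chaperonin (-1.87 and -1.94), the cyclin gene CCNE1 (-0.96 and -1.52), the phosphatase gene CDC25A (-0.97 and -1.37) and E2F2 (-0.52 and -1.56). For the difference of the responses, 24 of the 58 induced targets were higher in Farage, 9 lower and 25 not called (median 0.11 beside -0.07 over all genes), beside 17.3% of all genes higher and 17.6% lower. Rescaling to the same total raises the share of higher calls over all genes in this comparison, as given with MLXIP, and the count for the list was not recomputed under it.

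Of 13 genes listed as repressed by MYC, 9 were tested: 6 rose and none fell in Farage, and 6 rose and 2 fell in SU-DHL-8 (medians 1.25 and 0.61). Of all genes tested, 21.9% were called higher and 21.2% lower in Farage, and 25.1% and 21.6% in SU-DHL-8. CDKN1B (p27, a cyclin-dependent kinase inhibitor) had 11.4 ± 0.228 FPKM in Farage morusinol and 3.95 ± 0.188 in Farage control, and 22.6 ± 0.345 in SU-DHL-8 morusinol and 13.02 ± 0.537 in SU-DHL-8 control. GADD45A, a stress gene, changed by 2.08 in Farage and 1.29 in SU-DHL-8, and BTG1, an antiproliferative gene, by 1.48 and 1.71. TSC22D3 (GILZ), better known as a target of glucocorticoids and FOXO factors, changed by 2.79 and 2.23. The 2 genes of the list that fell in SU-DHL-8 were CDKN1A (-0.64, adjusted p = 0.00145 in limma) and CDKN2C (-1.16, adjusted p = 5.62e-07). Neither was called in Farage (-0.11 and -0.06). The list mixes genes under many controls, so its counts do not measure repression by MYC.

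**Figure D4:**
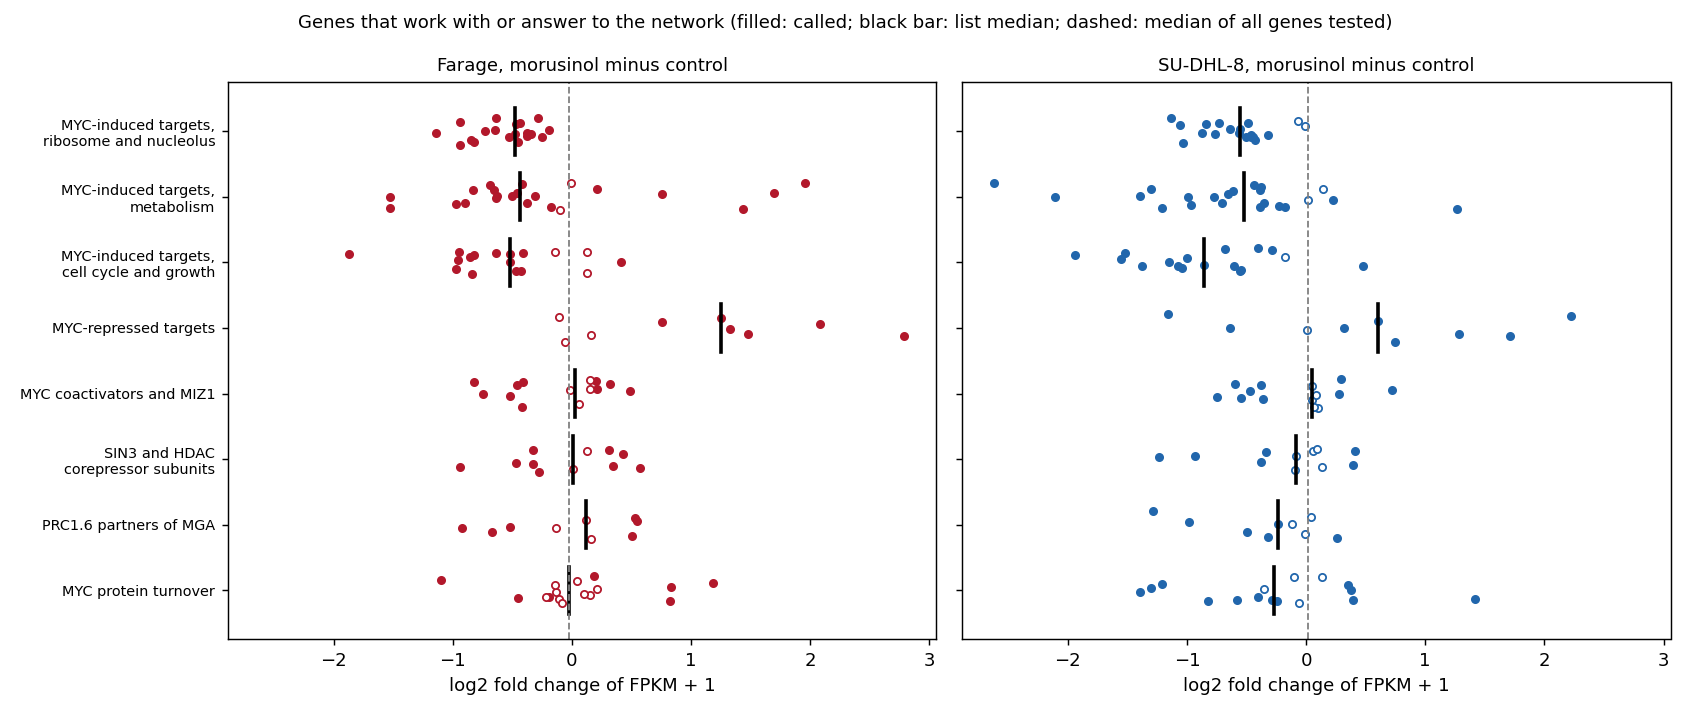
Log2 fold change of FPKM + 1, morusinol minus control, of the tested genes of 8 lists in Farage (left) and SU-DHL-8 (right). Filled points were called, black bars are list medians and the dashed line is the median of all genes tested; the 3 lists of induced targets have medians of -0.44 to -0.52 in Farage and -0.52 to -0.86 in SU-DHL-8.

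Genes for proteins that work with the network moved in both directions, and the counts that follow stand beside 43.1% of all genes called in Farage (21.9% higher, 21.2% lower) and 46.8% in SU-DHL-8 (25.1% higher, 21.6% lower). Of 11 SIN3 and histone deacetylase subunits, 4 rose and 5 fell in Farage and 2 rose and 4 fell in SU-DHL-8 (medians 0.01 and -0.08). HDAC1, the deacetylase that MXD proteins bring through SIN3, had 55.8 ± 3.51 FPKM in Farage morusinol and 108 ± 6.74 in Farage control (-0.94 ± 0.0569), and 28.6 ± 1.29 in SU-DHL-8 morusinol and 68.5 ± 0.716 in SU-DHL-8 control (-1.23 ± 0.0569). The histone-binding subunits RBBP7 (-0.33 and -0.93) and RBBP4 (-0.47 and -0.34) fell too, while ARID4B rose (0.57 and 0.41). Among 14 coactivator genes, 4 rose and 6 fell in Farage and 3 rose and 6 fell in SU-DHL-8 (medians 0.02 and 0.05). Those that fell include HCFC1 (-0.82 and -0.74), the helicase gene RUVBL1 (-0.74 and -0.59), ACTL6A (-0.52 and -0.38) and WDR5, which anchors MYC on chromatin (-0.42 and -0.55).

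The 9 partners of MGA in its Polycomb complex had 3 higher and 3 lower in Farage and 1 higher and 5 lower in SU-DHL-8 (medians 0.12 and -0.23). TFDP1, the dimer partner of E2F6, changed by -0.67 in Farage and -1.28 in SU-DHL-8, CBX3 (HP1 gamma) by -0.93 and -0.98, L3MBTL2 by -0.52 and -0.23 and RYBP by 0.53 and 0.26. Of 16 genes that set the stability of the MYC protein, 4 rose and 3 fell in Farage and 4 rose and 8 fell in SU-DHL-8 (medians -0.02 and -0.27); the Farage share was near that of all genes. SKP2, a ubiquitin ligase subunit for MYC, had 1.999 ± 0.0859 FPKM in Farage morusinol and 5.44 ± 0.340 in Farage control, and 3.07 ± 0.198 in SU-DHL-8 morusinol and 9.01 ± 0.0343 in SU-DHL-8 control. FBXO32, another ligase subunit, changed by 1.18 and 1.42 from low control levels, where the log2(FPKM + 1) scale understates changes. It had 1.76 ± 0.186 FPKM in Farage morusinol and 0.217 ± 0.0681 in Farage control. In SU-DHL-8 it had 2.08 ± 0.143 FPKM in morusinol and 0.150 ± 0.0293 in control. CDK2, a kinase that phosphorylates MYC, moved in opposite directions (0.83 in Farage and -1.39 in SU-DHL-8, difference 2.22 ± 0.0714, adjusted p = 3.78e-08 in limma), as did AURKA, which shields MYC family proteins from degradation (0.19 and -1.21, difference 1.39 ± 0.0786, adjusted p = 8.4e-07).

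TXNIP, the best known MondoA target, rose in both lines. It had 44.7, 44.9 and 44.8 FPKM in Farage morusinol and 18.1, 16.9 and 18.2 FPKM in Farage control (1.29 ± 0.0539, adjusted p = 3.53e-08 in limma). It had 69.9, 72.8 and 70.3 FPKM in SU-DHL-8 morusinol and 55.3, 53.9 and 47.4 FPKM in SU-DHL-8 control (0.44 ± 0.0539, adjusted p = 5.94e-05). The rise was larger in Farage (difference 0.85 ± 0.0762, adjusted p = 1.87e-05), the line in which MLX fell and MLXIP was not called. The other MondoA target, ARRDC4, had group means of at most 0.016 FPKM and was not tested.

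The paralogs of MYC and MondoA were low. MYCN had 0.408, 4.04 and 0.571 FPKM in Farage morusinol and 0.0403, 0.0206 and 0.127 FPKM in Farage control, while every SU-DHL-8 library listed it at 0. Its treated Farage libraries were all above the controls, with replicate 2 far above the other treated libraries. It did not pass the filter and was not tested. MYCL had group means of at most 0.373 FPKM and MLXIPL of at most 0.0129. Of the E-box factors outside the network, USF1 fell in both lines (-0.54 in Farage and -0.45 in SU-DHL-8), and USF2 rose in Farage (0.39, adjusted p = 0.000984 in limma) and was not called in SU-DHL-8 (0.15, adjusted p = 0.0899).

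The genes most like MYC across the 12 libraries, after subtraction of each line's mean on the log2(FPKM + 1) scale, were CYFIP2, RNF44, EGR1, SART3 and CIITA, with Pearson r of 0.960, 0.954, 0.950, 0.950 and 0.949 among 7134 genes with a mean FPKM of at least 5. All points share the 2 lines and the same treatment step, so the points are not independent. The 5 genes were chosen by this r, so a direction of change like that of MYC follows from the choice. Their calls are given only as a description. Each of the 5 rose in SU-DHL-8 (0.48 to 1.03), while CYFIP2 and EGR1 fell in Farage (-0.18 and -0.45) and the other 3 were not called there. EGR1, an immediate early transcription factor, had 7.28, 5.72 and 7.02 FPKM in Farage morusinol and 10.5, 9.16 and 8.75 FPKM in Farage control. It had 33.0, 30.2 and 34.5 FPKM in SU-DHL-8 morusinol and 14.3, 14.0 and 18.1 FPKM in SU-DHL-8 control. CYFIP2, a regulator of actin assembly, had 44.6 ± 0.823 FPKM in Farage morusinol and 50.7 ± 2.62 in Farage control, and 33.8 ± 1.11 in SU-DHL-8 morusinol and 24.0 ± 0.877 in SU-DHL-8 control. CIITA, the activator of MHC class II genes, changed by -0.15 in Farage, which was not called (adjusted p = 0.0778 in limma), and by 0.70 in SU-DHL-8.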

How the data were processed

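Total RNA was turned into libraries with the SMARTER mRNA-Seq kit, per the labels' protocols. The authors deposited FPKM, 1 column per library. For the aligner, counter, annotation and use of strand: not given in the sources used here. Per the labels, the submitters' processing notes list only mouse builds, yet all 61466 identifiers are human Ensembl, and 58297 (94.8%) match GENCODE release 29 on GRCh38, from which positions were taken. Columns marked mor were assigned to morusinol and those marked n to control, the remaining group of the line. Depth was estimated from the steps of FPKM times exon length; 53.5% to 56.4% of values under 50 fragments fell within 0.02 of a whole number, so no count test was run, and no counting intervals are given.

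Genes that reached an FPKM of 1 in 3 or more libraries (17574 genes) were fitted as log2(FPKM + 1) with limma 3.58.1 in R 4.3.3, all 12 libraries in 1 fit with 1 mean per group, an intensity trend and a robust prior; tests are two-sided and called at an adjusted p under 0.05. Python 3.11.15, pandas 2.3.3 and matplotlib 3.10.9 were used for tables and plots. The script was tested on simulated data. All 10 members were described; of a list with at most 8 genes all could be named, and of longer ones the 4 tested genes with the largest mean absolute limma t over both lines. The MYC-repressed genes that fell in SU-DHL-8 were named as well. The 5 genes most like MYC were chosen by Pearson r. Members, lists and motifs were chosen with earlier results of these data known. Alternatives were another pseudocount, no filter, 2 rescalings, a plain prior, fits of 2 groups only, a replicate block, and each library left out.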

Additional observations from a re-analysis of the deposited data

Results flagged for a closer look

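For 3 members the morusinol response differed between the lines by the interaction test in limma, beside 34.9% of all genes tested, so their number is near or below the share over all genes. The response of Farage cells less that of SU-DHL-8 cells was -0.59 for MYC (adjusted p = 0.0019), -0.69 for MLXIP (adjusted p = 0.00216) and -0.32 for MGA (adjusted p = 0.00367). MYC and MLXIP were called in SU-DHL-8 and not in Farage, and MGA rose in both lines. The MGA difference was not called when each library was rescaled to the same total (-0.22, adjusted p = 0.0923 in limma). Among the 6 B lymphocyte markers, 5 fell in Farage and 1 was not called, and 4 fell and 2 rose (CD79B and PAX5) in SU-DHL-8; their part in these differences was not tested.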

How the results depend on the processing

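All 171 alternative values computed for MYC and for the counts of genes and members called were scored as unchanged. For MYC this meant the same direction and side of the threshold, and for a count a value within 1.5 times. That limit is wide for small counts. Members called ranged from 2 to 4 for the difference of the responses (3 in the main fit) and from 6 to 9 between controls (8 in the main fit). They ranged from 7 to 8 in Farage and from 8 to 9 in SU-DHL-8. With 1 library left out, MYC ranged from 0.41 to 0.52 in SU-DHL-8, from -0.18 to -0.05 in Farage, and from -0.65 to -0.51 for the difference of the responses. Of 513 alternative values for the other members, 481 kept direction and side of the threshold, 17 lost a call, 6 gained one and 9 turned in sign. All sign changes were of differences that were not called: MAX between controls (0.047 after rescaling to the same total), MXI1 for the difference of the responses (0.15 with a pseudocount of 0.1 and 0.19 after rescaling to the same total), MXD1 for the same difference (0.010 after rescaling by the median ratio, 0.0073 after rescaling to the same total, and -0.079 to 0.023 with 1 library left out), and MXD3 in SU-DHL-8 (-0.13 to 0.028 with 1 library left out, above 0 without SU-DHL-8 morusinol replicate 2). MXD3 in Farage was also lost with a pseudocount of 0.1 (adjusted p = 0.0744), with no filter (0.0972) and after rescaling to the same total (0.0759), and MXD4 and MNT between controls in a fit of the 2 groups alone (0.0683 and 0.0706). The difference of MXD3 between the responses was called without SU-DHL-8 morusinol replicate 1 (0.37, adjusted p = 0.0246). The causes were not tested. Rescaling to the same total moved the median of all genes between controls to 0.19, beside 0.08 as deposited. Replicate numbers showed no clear pairing: deviations of same-numbered libraries correlated with r of -0.0788 to 0.0544. Libraries with different numbers had r of -0.0957 to 0.115. With 3 libraries per group these values cannot exclude a pairing. With the replicate block the counts were 7287 genes in Farage and 7935 in SU-DHL-8, and 5786 for the difference, and the call of MXD3 in Farage was lost (adjusted p = 0.0659). It changed no other call of a member. MXD3 and MXD1 rested on the fewest estimated fragments (48.4 and 78.0 in their lowest libraries). The part of depth in their spread was not tested.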
